A study of Mus musculus with 8 samples.

Results

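The Slc25 genes encode the mitochondrial carrier family, the transporters that move nucleotides, amino acids, carboxylates, cofactors, phosphate and iron across the inner membrane of the mitochondrion. The family was taken as every gene of the deposited table whose symbol is Slc25a followed by a number, which gave 47 genes of the 46983 listed. Related genes with other symbols, such as the uncoupling proteins Ucp1, Ucp2 and Ucp3, were not counted as members. Of the 47, 46 were above 0 in at least 1 library and 1 (Slc25a54) was listed at 0 in all 8.

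RNA-Seq was performed on hippocampal tissue of 4 XBP1s-TG mice and 4 control mice, all on the C57BL/6 background, 2 months old with tissue taken 7 days after doxycycline (Dox) was removed. XBP1s-TG mice carry TRE-XBP1s and Camk2a-tTA, so that a tetracycline-controlled activator driven by the Camk2a promoter turns on spliced Xbp1 in excitatory neurons of the forebrain after Dox removal. The labels give the genotype of the other group only as Control. XBP1s-TG is 1 transgenic line, and the tissue is bulk hippocampus with all of its cell types, so the values average cells that carry the active transgene with cells that do not. The libraries are called S1 to S4 (XBP1s-TG) and S5 to S8 (Control).

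A carrier is a single polypeptide of tandem repeats that is made in the cytosol, passes the outer membrane through the TOM complex and is inserted by the TIM22 complex. Each carrier usually exchanges one kind of small molecule for another, so the set of carriers sets which metabolites the matrix shares with the cytosol. In brain, the ADP/ATP and phosphate carriers feed the ATP synthase. Carriers of glutamate, aspartate and malate link cytosolic NADH and transmitter metabolism to the respiratory chain. XBP1s is a transcription factor of the unfolded protein response of the endoplasmic reticulum, and the comparison of the groups asks how the RNA of these carriers stood when it was raised.

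Levels are in TPM, the transcripts of a gene per 1000000 transcripts of a library. Reads assigned to genes, recovered as whole numbers from the TPM values and given here in units of 1000000, numbered 35.3 to 41.8 in XBP1s-TG and 34.9 to 52.1 in control libraries. Xbp1 was at 786 TPM in S1, 549 TPM in S2, 1094 TPM in S3 and 729 TPM in S4, against 68.9 to 71.9 TPM in control libraries. Excitatory neuron markers (5 genes, summed) were at 3053 to 3524 TPM in XBP1s-TG and 3364 to 3862 TPM in control libraries, so the markers of the labelled tissue were present. S1 and S3 stood apart in the RNA of neighbouring tissue. The 9 choroid plexus markers summed to 87.0 TPM in S1 and 184 TPM in S3, against 5165 TPM in S2, 9171 TPM in S4 and 4044 to 8972 TPM in control libraries. The 6 hypothalamus markers summed to 254 TPM in S1, 13.7 to 16.2 TPM in the other XBP1s-TG libraries and 6.03 to 12.7 TPM in control libraries. Results below are therefore also given without S1 and S3 where that changed whether a carrier passed a threshold.

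The carriers covered a wide range of levels in the hippocampus. TPM is scaled here to 1 length per gene, such as 2353 bases for Slc25a4 and 5550 bases for Slc25a3. For many genes that length takes in all annotated exons together and not those of 1 transcript. Ranks and shares between genes are therefore approximate. The ADP/ATP carrier Slc25a4 was the most abundant member, and 5 members (Slc25a4, Slc25a5, Slc25a23, Slc25a22 and Slc25a3) made up 58.6% of the TPM of the family. Mean TPM over the 8 libraries exceeded 50 for 16 members, and 6 members stayed under 1 TPM in every library while above 0 in some. The whole family summed to 2950 to 3171 TPM in XBP1s-TG and 2827 to 2927 TPM in control libraries, with means of 3053 ± 91.6 TPM in XBP1s-TG and 2876 ± 48.8 TPM in Control (SD, n = 4 each). The sums of the groups did not overlap, and the excess of the XBP1s-TG sums is small beside the family total. Without normalization between libraries the median log2 fold change over all genes tested below was also positive (0.07). The excess was thus not shown to be particular to the family. In bulk tissue, fewer cells of a type and less RNA per cell cannot be told apart, for this sum and for each gene below.

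**Figure D1:**
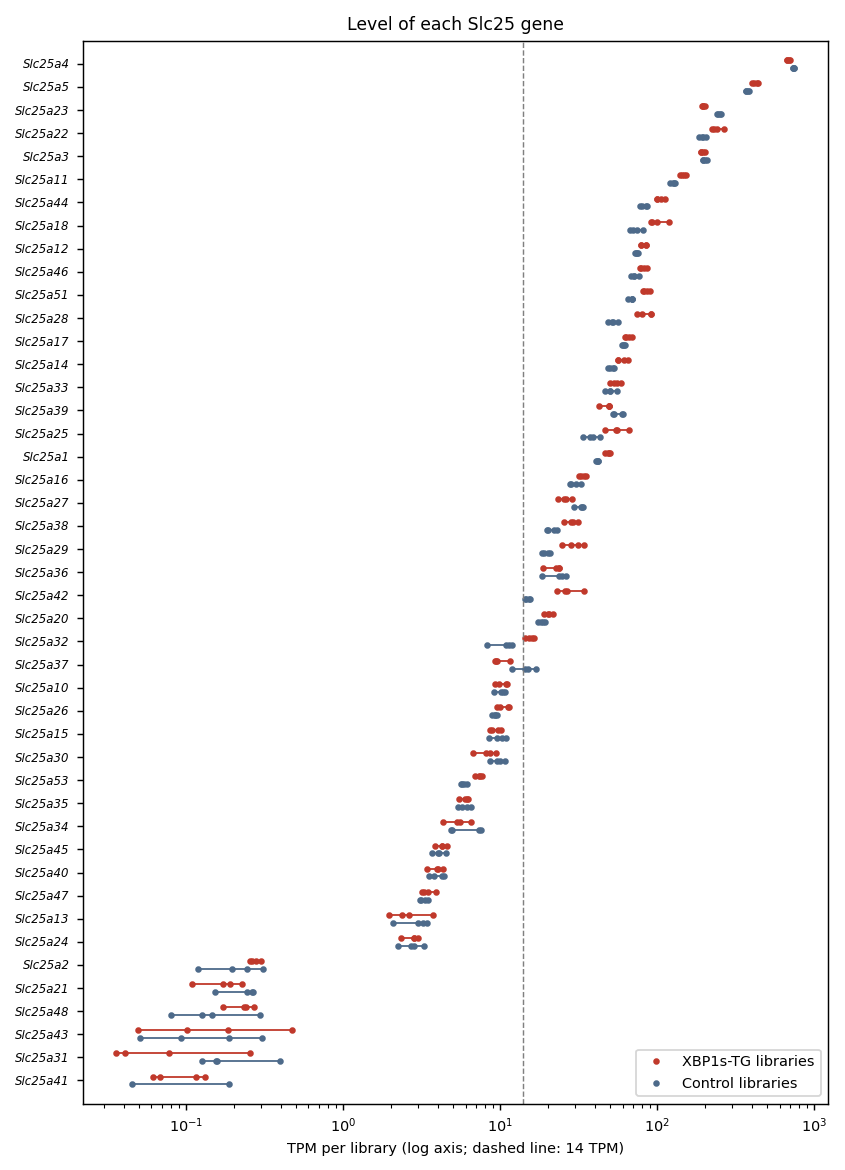
TPM (log axis) of 45 Slc25 genes above 0, ordered by mean, with 1 point per library, XBP1s-TG above Control in each row, and a line over the range of each group. Values of 0 (Slc25a41 in 2 control libraries) cannot be drawn on this axis. Slc25a4 lies at 668 to 740 TPM and the bottom 6 genes lie below 1 TPM, and for most genes the groups lie close together relative to the differences between genes.

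For the comparison of the groups, 2 was added to each TPM value, log2 was taken and the libraries were quantile normalized. Genes that exceeded 4 (14 TPM) in 1 or more libraries were fitted with limma and adjusted over all 9270 of them by Benjamini-Hochberg. Of the 47 members 28 entered the fit. Fold changes below are log2 values on this scale, XBP1s-TG over Control, and are smaller than the ratio of the TPM means for low genes because 2 is added. The normalization lowered the values of XBP1s-TG libraries relative to TPM. Over all genes tested, the median log2 fold change was -0.04 with it and 0.07 without it, so a carrier with near-equal TPM in the groups came out slightly negative.

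Past 1.5-fold with an adjusted p under 0.05, 1 carrier rose (Slc25a42) and 0 fell by limma, against 5.61% of all genes tested that rose and 2.75% that fell. The share of 3.57% of the 28 lies below that of all genes, so this count says nothing particular to the family. By voom 1 rose and 1 fell at the same thresholds. At an unadjusted p under 0.05 with no limit on the fold change 12 were higher and 6 lower by limma. Shares over all genes by voom and at an unadjusted p are not given here or below, so such counts are a description only. At the adjusted p alone, 11 carriers rose and 6 fell, which is 39.3% and 21.4% of the 28, against 24.4% and 29.4% of all genes tested. The median log2 fold change was 0.06 over the 28 carriers and -0.04 over all genes. In TPM, 16 of the 28 had every XBP1s-TG library above every control library and 5 had every one below, against 34.1% and 13.2% of all genes tested. The 17 carriers that passed thus moved by small amounts, between 0.11 and 0.69 upward and between -0.11 and -0.53 downward. A pair of these, Slc25a32 and Slc25a37, had values above the limit only in the group where they were higher, so their presence in the fit depended on the difference itself. With no limit on low values 46 carriers were tested, 11 rose and 7 fell, against 9.45% and 9.21% of 29237 genes, most of which are at low levels. The added gene that fell was Slc25a30, and the other 17 were those of the fit with the limit. Without normalization between libraries 17 carriers rose and 5 fell (77.3% of those called were higher, against 64.7% with it), with median centring 12 rose and 5 fell, and without S1 and S3 9 rose and 4 fell. Shares over all genes are not given for these settings, and the median over all genes also moved up without normalization. Whether these counts are particular to the family cannot be told.

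**Figure D2:**
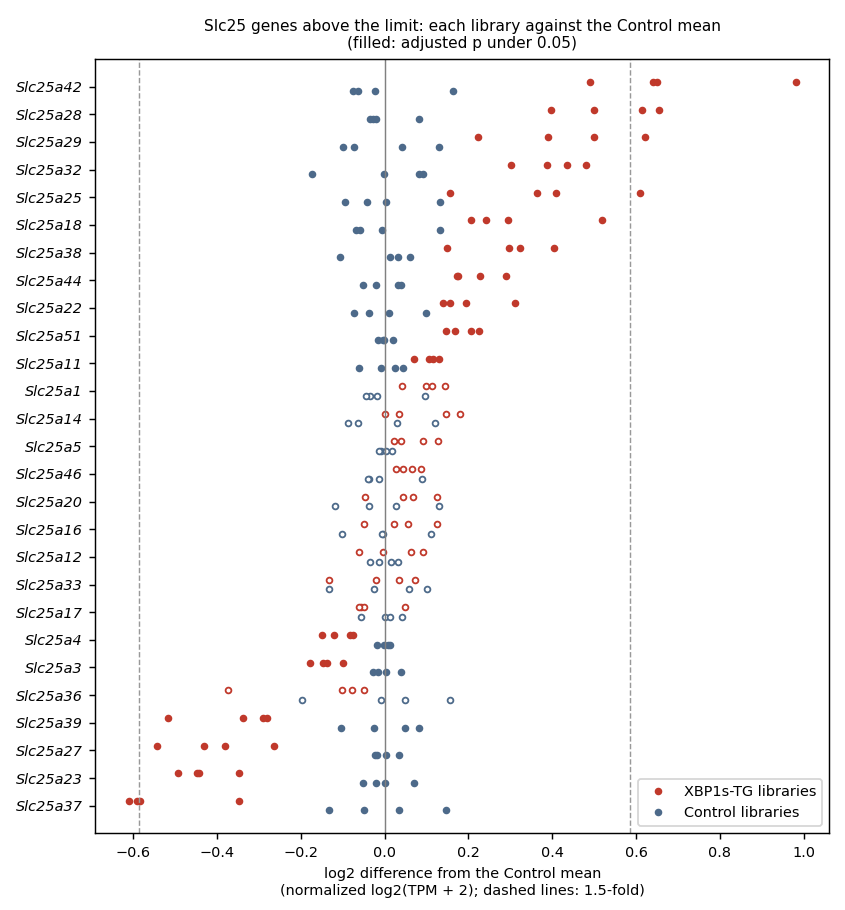
Difference of each library from the Control mean on the normalized log2(TPM + 2) scale, for 27 of the 28 Slc25 genes tested, XBP1s-TG above Control in each row and filled points for genes with an adjusted p under 0.05. In the 11 genes that rose and the 6 that fell no XBP1s-TG library overlaps a control library on this scale, and the mean passes the dashed line of 1.5-fold in Slc25a42 alone.

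Slc25a42 (ENSMUSG00000002346) encodes a carrier that brings coenzyme A into the matrix in exchange for adenine nucleotides. It lies on the minus strand of GRCm38 at chr8:70184340-70212305. The XBP1s-TG libraries S1 to S4 were at 26.4, 25.9, 34.1 and 23.0 TPM, against 14.5, 14.4, 15.3 and 15.5 TPM in the control libraries S5 to S8. The lowest XBP1s-TG library lay well above the highest control library. S3, with the most Xbp1 and few choroid plexus markers, was the highest, and S4 was the lowest, not S2 with the least Xbp1. Between 1529 and 2493 reads per XBP1s-TG library and 1022 and 1441 per control library stand behind these values. Means were 27.3 ± 4.78 TPM in XBP1s-TG and 14.9 ± 0.564 TPM in Control (SD, n = 4 each), 82.9% higher, and the log2 fold change was 0.69 ± 0.101 (standard error; limma, adjusted p = 0.000414). Without S3 the log2 fold change was 0.59, and without both S1 and S3 it was 0.56 (adjusted p = 0.00229), which is under 1.5-fold. The few other genes of coenzyme A synthesis and transport that were looked at gave no rise that passed with quantile normalization. Of 5 tested genes of coenzyme A synthesis, 0 rose and 1 fell at the adjusted p alone by limma and by voom (0 higher and 1 lower also at an unadjusted p under 0.05), with a median of -0.08, and the members Slc25a16, linked to coenzyme A in the matrix, and Slc25a17, the coenzyme A and nucleotide carrier of peroxisomes, did not pass. Slc25a16 was at 33.4 TPM in XBP1s-TG and 29.7 TPM in Control, and Slc25a17 at 65.0 TPM in XBP1s-TG and 60.9 TPM in Control. Without normalization between libraries, where the median over all genes was 0.07, Slc25a16 passed as higher (0.16, adjusted p = 0.0473 from limma).

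The sequences before the start of the 2 carriers with the largest rise are shown because XBP1s binds DNA near the starts of its targets. They were read from the RefSeq promoter table of GRCm38.p6, are on the minus strand, and run up to the first base annotated as transcribed, chr8:70212306-70212531 for Slc25a42 and chr19:43674882-43675131 for Slc25a28. Capitals mark CCAAT or its reverse complement, a box that also forms the first part of the ER stress response element.
Slc25a42: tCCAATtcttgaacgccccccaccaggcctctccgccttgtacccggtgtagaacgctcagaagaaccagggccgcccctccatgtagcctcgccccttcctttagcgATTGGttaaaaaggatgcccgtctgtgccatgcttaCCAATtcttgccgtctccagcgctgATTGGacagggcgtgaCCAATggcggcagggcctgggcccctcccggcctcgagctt
Slc25a28: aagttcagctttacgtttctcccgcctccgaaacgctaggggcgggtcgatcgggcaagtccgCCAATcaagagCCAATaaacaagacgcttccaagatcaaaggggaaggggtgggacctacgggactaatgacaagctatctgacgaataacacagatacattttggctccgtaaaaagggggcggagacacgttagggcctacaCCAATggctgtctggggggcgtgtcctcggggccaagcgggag
Slc25a42 holds the box 5 times and Slc25a28 3 times.

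Windows of 250 bases before to 50 bases after the RefSeq start were available for 36 of the 47 members, 46 windows in all, and were searched on both strands. The full ER stress response element, CCAAT and CCACG with 9 bases between them, was in 0 of the 46 windows and in 0.119% of all 32851 windows of the table. Its second part, CCACG, was in 23 of the 46 and in 32.8% of all windows. Counted per gene, where a gene with several windows has more chances to match, it was in 19 of the 36 members, in 2 of the 8 among them that rose and in 3 of the 4 that fell. CCAAT, added after the windows were seen, was in 22 of 46 (47.8%) and 37.4% of all windows, and per gene in 19 of the 36 members, 6 of those 8 and 2 of those 4. The core of the unfolded protein response element, TGACGTG, was in 1 of the 46 windows (2.17%) and 2.01% of all. That window belongs to Slc25a1, the citrate carrier, where the core starts at base 7 after the RefSeq start, here within chr16:17928197-17928223 (minus strand, core in capitals).
Slc25a1: gcccgggagcTGACGTGaccaccccgc
Slc25a1 was at 48.7 TPM in XBP1s-TG and 41.5 TPM in control hippocampi and did not pass the adjusted p. The C/EBP-ATF response element, TGATGNAAT, which ATF4 binds, was in 0 of the 46 windows and 0.965% of all. A match describes letters in these windows and is no evidence of binding.

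Carriers of iron and glutathione went in opposite directions. Slc25a28 encodes mitoferrin 2, which brings iron into the mitochondria of most tissues. It was at 91.3, 79.5, 90.6 and 73.9 TPM in S1 to S4, against 51.0, 56.3, 52.3 and 48.5 TPM in S5 to S8. All XBP1s-TG libraries lay above all control libraries, with S1 and S3 highest. The means of 83.8 TPM in XBP1s-TG and 52.0 TPM in Control differ by 61.2%, and the log2 fold change was 0.54 ± 0.0601 (standard error; limma, adjusted p = 8.98e-05). It passed 1.5-fold without normalization between libraries (0.66), with median centring (0.63) and without S4 (0.59). Without both S1 and S3 it fell to 0.45 (adjusted p = 0.000921 from limma).

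Slc25a37 encodes mitoferrin 1, the iron carrier best known from developing red cells. Its levels were the reverse of those of mitoferrin 2, at 9.27, 11.6, 9.37 and 9.54 TPM in S1 to S4, against 15.1, 14.3, 16.8 and 11.8 TPM in S5 to S8. S2 and S8 lay close to each other and the other libraries lay further apart. The log2 fold change was -0.53 ± 0.0880 (standard error; limma, adjusted p = 0.000845), and past 1.5-fold by voom on the recovered reads (-0.66), with a pseudocount of 0.1 (-0.62) and without S2 (-0.59). Slc25a37 was above the limit only in control libraries, so its place in the fit and its adjusted p depended on the difference itself. With values below the limit raised to it, the log2 fold change was -0.09 (adjusted p = 0.132). Slc25a39, which brings glutathione into the matrix, averaged 47.6 ± 3.32 TPM in XBP1s-TG and 56.4 ± 4.29 TPM in Control (SD, n = 4 each), a log2 fold change of -0.36 (adjusted p = 0.00122 from limma). Its near relative Slc25a40 was under the limit, at 3.92 TPM in XBP1s-TG and 3.98 TPM in Control (exact two-sided permutation test, p = 0.857). Microglia markers were lower as well. The 5 genes summed to 142 to 161 TPM in XBP1s-TG and 163 to 180 TPM in control libraries. At the adjusted p alone 4 of the 4 tested fell, against 29.4% of all genes tested. The part of these markers in the fall of Slc25a37 was not tested.

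Among the carriers of adenine nucleotides and phosphate 1 rose, 3 fell and 1 did not pass at the adjusted p. Over all genes tested, 24.4% rose and 29.4% fell, and with so few carriers the counts are a description only. Slc25a4 (chr8:46206797-46211284, minus strand) encodes ANT1, the ADP/ATP carrier of brain, heart and muscle. It was at 696, 668, 669 and 685 TPM in S1 to S4, against 729, 739, 740 and 727 TPM in S5 to S8. The groups did not overlap, yet in TPM the XBP1s-TG mean dropped by 7.39% relative to Control, and the log2 fold change was -0.11 ± 0.0317 (standard error; limma, adjusted p = 0.0182). The call was lost without S6 (adjusted p = 0.0516) and without both S1 and S3 (adjusted p = 0.0810).

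Slc25a5 (chrX:36795651-36798807, plus strand) encodes ANT2, the ADP/ATP carrier of proliferating and many other cells. It was at 411, 400.1, 437 and 429 TPM in S1 to S4, against 364, 380.2, 381 and 367 TPM in S5 to S8. All XBP1s-TG values lay above all control values, by a mean of 12.4%, but on the normalized scale the log2 fold change was 0.07 (95% confidence interval -0.01 to 0.15) and the adjusted p was 0.124 from limma. Without normalization between libraries it was 0.17 (adjusted p = 0.00847). A pseudogene copy, Slc25a5-ps, was listed at 0.844 TPM or less. The phosphate carrier Slc25a3 overlapped between the groups in TPM (194 ± 5.23 in XBP1s-TG and 199.985 ± 5.74 in Control, SD, n = 4 each). Its log2 fold change of -0.14 passed with quantile normalization (adjusted p = 0.00809 from limma) and not with none (-0.04, adjusted p = 0.398), with median centring (adjusted p = 0.162) or without S1 and S3 (adjusted p = 0.0713).

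The ATP-Mg/phosphate carriers set the adenine nucleotide content of the matrix, and those measured here above the limit are regulated by calcium. Slc25a23 (chr17:57043711-57059863, minus strand) was the third most abundant member in Control, and in XBP1s-TG it lay below Slc25a22. It was at 194, 202, 194 and 192 TPM in S1 to S4, against 242, 239.9, 249 and 256 TPM in S5 to S8. The groups were far apart relative to their spread, and no XBP1s-TG library stood out. The log2 fold change was -0.43 ± 0.0443 (standard error; limma, adjusted p = 5.74e-05), the smallest p of the family, and it stayed between -0.46 and -0.33 in all alternatives run. Slc25a25, a carrier of the same kind, went the other way, at 55.6 ± 8.30 TPM in XBP1s-TG and 38.3 ± 3.96 TPM in Control (SD, n = 4 each), a log2 fold change of 0.39 (adjusted p = 0.00538 from limma). Slc25a25 and Slc25a23 share 989 and 759 bases with genes on the opposite strand, Naif1 and Crb3, which were below 4 TPM on average in both groups. Slc25a24 was under the limit at 2.73 TPM in XBP1s-TG and 2.75 TPM in Control (exact permutation test, p = 1). Slc25a31, the ADP/ATP carrier of testis, and Slc25a41 rest on 10 and 6 reads over the XBP1s-TG libraries and 25 and 4 reads over the control libraries.

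**Figure D3:**
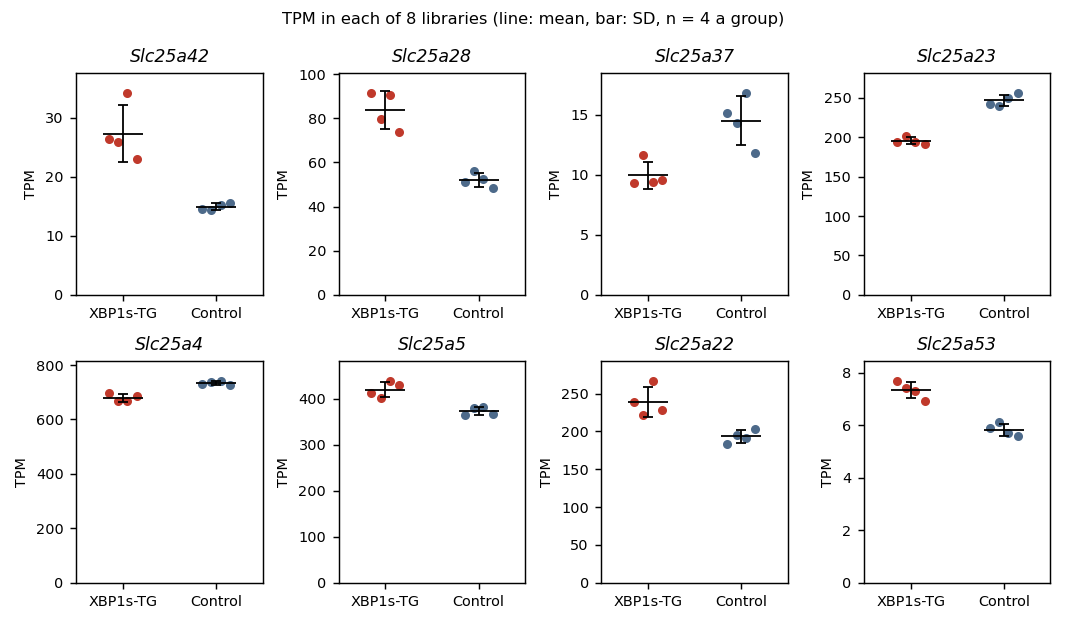
TPM of 8 Slc25 genes in each library, XBP1s-TG left and Control right, with the mean and SD of the 4 libraries of a group and axes from 0. Slc25a42 (23.0 to 34.1 against 14.4 to 15.5 TPM) and Slc25a28 are higher in XBP1s-TG, Slc25a37 and Slc25a23 are lower, and the abundant Slc25a4 and Slc25a5 differ little relative to their level.

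Carriers of glutamate and of its shuttle partners were higher or did not pass, and none of the 5 tested fell by limma or voom (0 lower and 4 higher by limma at an unadjusted p under 0.05). Over all genes tested, 24.4% rose and 29.4% fell at the adjusted p. Slc25a22 (chr7:141429744-141437892, minus strand) encodes GC1, a mitochondrial glutamate carrier in which loss of function causes epileptic encephalopathy in humans. It was at 239, 221, 266 and 228 TPM in S1 to S4, against 183, 195, 191 and 203 TPM in S5 to S8. The groups did not overlap, and S3 was again highest. The log2 fold change was 0.20 ± 0.0527 (standard error; limma, adjusted p = 0.0104), and the call was lost without S1 and S3 (0.15, adjusted p = 0.0844). Slc25a18 encodes GC2, the glutamate carrier that in rodent brain is prominent in astrocytes, and averaged 100.1 ± 12.4 TPM in XBP1s-TG and 73.1 ± 6.12 TPM in Control (SD, n = 4 each), a log2 fold change of 0.32 (adjusted p = 0.00572 from limma). The 6 astrocyte markers summed to 1324 to 1594 TPM in XBP1s-TG and 1288 to 1446 TPM in control libraries, with 0 of 6 higher and 1 lower at the adjusted p by limma and voom (0 higher and 2 lower at an unadjusted p under 0.05). The part of astrocytes in the values of Slc25a18 was not tested.

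Slc25a11, which exchanges oxoglutarate for malate, averaged 146 ± 5.58 TPM in XBP1s-TG and 126 ± 4.41 TPM in Control (SD, n = 4 each), and its log2 fold change of 0.11 just passed (adjusted p = 0.0375 from limma). It did not pass by voom (adjusted p = 0.197) or without S1, S3, S4, S5, S6 or S7 (adjusted p = 0.0570 or more), nor without both S1 and S3 (0.09, adjusted p = 0.199). It also shares 245 bases with Rnf167 on the opposite strand, at 81.0 TPM in XBP1s-TG and 56.3 TPM in Control, and whether reads were counted by strand is not stated. Slc25a12, the aspartate/glutamate carrier of brain known as aralar, was at 81.6 TPM in XBP1s-TG and 73.6 TPM in Control and did not pass. Its relative Slc25a13 (citrin) was under the limit at 2.66 TPM in XBP1s-TG and 2.93 TPM in Control. The dicarboxylate carrier Slc25a10 was at 10.2 TPM in XBP1s-TG and 10.1 TPM in Control, and the oxodicarboxylate carrier Slc25a21 was at 0.174 TPM in XBP1s-TG and 0.231 TPM in Control.

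Of the 7 enzymes of the malate-aspartate and glycerol phosphate shuttles, 3 rose, 2 fell and 2 did not pass at the adjusted p. Over all genes tested, 24.4% rose and 29.4% fell. At 1.5-fold, 1 fell by limma and 0 by voom. This was Gpd2, the glycerol phosphate dehydrogenase of the inner membrane, at 63.4 ± 3.63 TPM in XBP1s-TG and 88.8 ± 1.53 TPM in Control (SD, n = 4 each), a log2 fold change of -0.60 ± 0.0578 (standard error; limma, adjusted p = 4.26e-05). The others that passed, named after their values were seen, were Got1 (0.34), Mdh1 (0.28), Gpd1 (0.26) and Got2 (-0.25).

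All 3 tested carriers of other amino acids rose at the adjusted p, against 24.4% of all genes tested, and with 3 genes this share is a description only. Slc25a29, which carries arginine and lysine, averaged 29.4 ± 4.01 TPM in XBP1s-TG and 19.6 ± 1.04 TPM in Control (SD, n = 4 each), a log2 fold change of 0.43 (adjusted p = 0.00249 from limma). Slc25a38, the glycine carrier needed for the first step of heme synthesis, averaged 28.5 ± 2.52 TPM in XBP1s-TG and 21.2 ± 1.45 TPM in Control (0.29, adjusted p = 0.00318). Slc25a44, which carries branched-chain amino acids, was at 104 ± 6.27 TPM in XBP1s-TG and 82.0 ± 3.54 TPM in Control (0.22, adjusted p = 0.00206). The ornithine carrier Slc25a15 was under the limit at 9.33 TPM in XBP1s-TG and 9.78 TPM in Control (exact permutation test, p = 0.486), and Slc25a2, a carrier of the same kind, stayed at or below 0.309 TPM.

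Of 9 tested carriers of cofactors, nucleotides and fatty acids, 3 rose, 0 fell and 6 did not pass by limma and by voom, against 24.4% of all genes tested that rose and 29.4% that fell by limma. At an unadjusted p under 0.05, 3 carriers were higher and 0 lower. Beside Slc25a42 those that rose were Slc25a32, linked to folate and FAD, and Slc25a51, the NAD carrier. Slc25a32 averaged 15.4 ± 0.937 TPM in XBP1s-TG and 10.6 ± 1.63 TPM in Control (SD, n = 4 each), a log2 fold change of 0.40 (adjusted p = 0.00206 from limma), or 0.09 (adjusted p = 0.0658) with values below the limit raised to it. It was above the limit only in XBP1s-TG libraries, so its place in the fit depended on the difference itself. Slc25a51 was at 84.6 ± 4.15 TPM in XBP1s-TG and 67.8 ± 2.10 TPM in Control (0.19, adjusted p = 0.00157). Folate in the matrix feeds the one-carbon enzymes, of which 5 were tested, with 2 higher and 2 lower at the adjusted p (24.4% and 29.4% of all genes tested) and a median of -0.02. Among those that did not pass were Slc25a16 and Slc25a17, the carnitine/acylcarnitine carrier Slc25a20 (20.2 TPM in XBP1s-TG and 18.3 TPM in Control) and the pyrimidine nucleotide carriers Slc25a33 (54.3 TPM in XBP1s-TG and 50.4 TPM in Control) and Slc25a36 (22.2 TPM in XBP1s-TG and 23.2 TPM in Control). The S-adenosylmethionine carrier Slc25a26 was under the limit at 10.5 TPM in XBP1s-TG and 9.22 TPM in Control (exact permutation test, p = 0.0571).

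The relatives of the uncoupling proteins that brain expresses did not move together. Slc25a27 encodes UCP4, found mainly in neurons, and averaged 25.9 ± 2.13 TPM in XBP1s-TG and 32.1 ± 1.71 TPM in Control (SD, n = 4 each), a log2 fold change of -0.40 (adjusted p = 0.000340 from limma). Slc25a14, which encodes UCP5, was at 59.4 TPM in XBP1s-TG and 51.0 TPM in Control and did not pass. Slc25a30 was under the limit at 8.18 TPM in XBP1s-TG and 9.69 TPM in Control (exact permutation test, p = 0.0571). Of the 5 excitatory neuron markers tested beside them, 1 rose and 3 fell at the adjusted p, against 24.4% and 29.4% of all genes tested. At 1.5-fold 1 fell, Neurod6, a transcription factor of forebrain pyramidal neurons, at 146 ± 32.1 TPM in XBP1s-TG and 258 ± 33.1 TPM in Control (SD, n = 4 each; log2 fold change -0.94, adjusted p = 0.00109). The part of these markers in the values of Slc25a27 was not tested.

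Over the 11 carriers that rose, the level followed the libraries in a like way. In TPM, 9 of the 11 were highest in S3 among the XBP1s-TG libraries and 2 in S1, and 8 were lowest in S2 and 3 in S4. S3 had the most Xbp1 (1094 TPM) and S2 the least (549 TPM). The 6 that fell had no such order, with the lowest value in S1 for 2, S2 for 2, S3 for 1 and S4 for 1. S3 is also a library with few choroid plexus markers, and with 4 libraries Xbp1 and these markers cannot be told apart. The order of the libraries over all genes that rose was not examined, so these counts say nothing particular to the carriers.

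The 11 tested members that did not pass had log2 fold changes of -0.15 to 0.10, adjusted p of 0.0775 to 0.888, and 95% confidence intervals that together ran from -0.35 to 0.22. Changes of 1.5-fold lie outside these intervals, and smaller changes up to the bounds given lie inside, so these members were not shown to be unchanged. The interval of Slc25a1, 0.0024 to 0.20, lies above 0. Without normalization between libraries, where the median over all genes was 0.07, 6 of the 11 passed, all of them higher in XBP1s-TG. They were Slc25a1 (0.22), Slc25a14 (0.21), Slc25a46 (0.17), Slc25a5 (0.17), Slc25a16 (0.16) and Slc25a12 (0.14). Also among the 11 was Slc25a46, a protein of the outer membrane that takes part in mitochondrial shape, at 81.2 TPM in XBP1s-TG and 71.8 TPM in Control.

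Under the limit, 18 members above 0 had their log2(TPM + 2) values compared by exact permutation (two-sided), without adjustment, and the smallest p that 4 libraries against 4 allow is 0.0286. It was reached by 1 of the 18, Slc25a53, a carrier with no settled substrate. The values compared were not normalized between libraries. The share of all genes under the limit that reached this p is not given, so the count says nothing particular to the carriers. In the quantile-normalized fit with no limit on low values Slc25a53 did not pass (log2 fold change 0.20, adjusted p = 0.0549 from limma). Slc25a53 was at 7.68, 7.42, 7.32 and 6.93 TPM in S1 to S4, against 5.89, 6.11, 5.70 and 5.59 TPM in S5 to S8, a difference of 0.26 on the log2(TPM + 2) scale. It shares 5318 bases with Zcchc18 on the opposite strand, a gene at 160.4 TPM in XBP1s-TG and 169 TPM in Control, so some of its reads may belong to that gene if strand was not used. The other members with no settled substrate lay at 5.94 and 5.92 TPM (Slc25a35), 5.40 and 6.15 TPM (Slc25a34), 4.23 and 4.07 TPM (Slc25a45) and 3.44 and 3.25 TPM (Slc25a47) in XBP1s-TG and Control, and Slc25a43 and Slc25a48 below 0.5 TPM. Their exact permutation p-values were 0.257 or more. Slc25a35 shares 1882 bases with Rangrf on the opposite strand, at 9.68 TPM in XBP1s-TG and 14.1 TPM in Control. Some of the reads of Slc25a35 may likewise belong to that gene if strand was not used.

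The other genes of mitochondrial transport, counted from lists written with the members, gave counts that stand beside 24.4% higher and 29.4% lower over all genes tested. Of 13 tested genes of the import route of carriers (TOM and TIM complexes), 4 rose, 4 fell and 5 did not pass at the adjusted p, with a median of 0.05 and a range of -0.32 to 0.35. Of 18 other transporters and channels, including the pyruvate carrier, the calcium uniporter and the VDAC pores of the outer membrane, 2 rose, 7 fell and 9 did not pass, with a median of -0.12. Of 13 genes of mitochondrial content and biogenesis, 3 rose, 3 fell and 7 did not pass, with a median of -0.08. In these 3 lists 0 genes reached 1.5-fold by limma or by voom, and at an unadjusted p under 0.05 with no limit on the fold change limma gave 5 higher and 4 lower for import, 2 and 10 for other transporters and 3 and 5 for content and biogenesis.

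**Figure D4:**
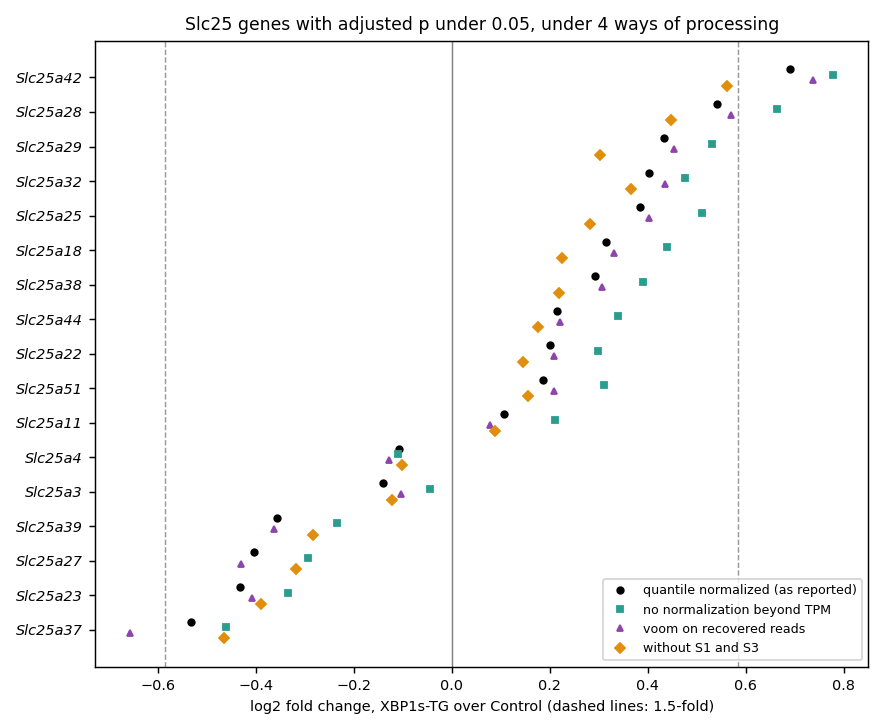
Log2 fold change (XBP1s-TG over Control) of the 17 Slc25 genes with an adjusted p under 0.05, as reported and under 3 other ways of processing. No gene changes sign, the values without normalization between libraries lie to the right of those reported for all genes but Slc25a4, and Slc25a42 is at 0.56 without S1 and S3.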

How the data were processed

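The authors made libraries from 500 ng of total hippocampal RNA (KAPA Stranded mRNA-Seq Kit). Reads were checked with FastQC, trimmed with Trimmomatic, mapped to GRCm38 and counted per gene (annotation 83) in CLCbio Genomics Workbench. The table deposited by the authors holds TPM values of 46983 genes in 8 libraries. Its means per group and p-values per gene are the authors' own and were not used. Gene positions are those of the table.

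From these, log2(TPM + 2) values were quantile normalized and fitted with limma 3.58.1 (lmFit, eBayes with a trend) in R 4.3.3, for genes with at least 1 library above 4. Per the methods of the study, 2 was added and 1.5-fold was the threshold, but values were floored and an unequal-variance test was used per gene. The limit of 4 is a choice made here. The 4 libraries of a group are biological replicates per the methods of the study. Whole reads were recovered for 29237 of 29237 genes above 0 (100% whole, tolerance 0.001) and tested with voom, as an alternative, which called 1 member higher and 1 lower. The fit was also run on simulated data with independent noise and few changed genes. That setting differs from these data, so it says nothing on the effect of the normalization or of S1 and S3. Members and lists were chosen with earlier results of these data known. Values were printed per library for each member called and the 4 most abundant. Slc25a28, Slc25a37 and Slc25a53 were added to these after their values were seen. Means, fold change and adjusted p are given for other members that passed, and in other lists genes past 1.5-fold are named. The values of 1 member are not reported here.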

Additional observations from a re-analysis of the deposited data

Results flagged for a closer look

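Of 92 groups of 4 libraries with unequal TPM values over the Slc25 members, 4 held a library far from the other 3 by the ratio of its gap to the range of the group, and chance flags about 1 in 20. Slc25a39 was at 42.7 TPM in S1, against 49.3 to 49.4 TPM in the other XBP1s-TG libraries, and Slc25a37 was at 11.6 TPM in S2, against 9.27 to 9.54 TPM. In Control, Slc25a51 was at 64.7 TPM in S8, against 68.7 to 69.0 TPM, and Slc25a31 was at 0.398 TPM in S5, against 0.127 to 0.156 TPM, which rests on few reads.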

How the results depend on the processing

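No paired analysis was possible because the columns carry no replicate numbers. Alternatives were a pseudocount of 1 or 0.1, no limit or a stricter one (5), median centring or no normalization, a floor at 4, a fit without trend, an unequal-variance test with that floor, voom, and each library or both S1 and S3 left out. Of 319 fold changes recomputed for the 17 members that passed, 0 reversed, 300 kept their call and 19 lost it. Members called higher at 1.5-fold numbered 2 without normalization and with median centring, 0 without S1 and S3, and 1 to 2 with a library left out. Log2 fold changes were smaller in size without S1 and S3, though still past the adjusted p, for Slc25a29 (0.30), Slc25a25 (0.28), Slc25a18 (0.23), Slc25a38 (0.22) and Slc25a27 (-0.32). Those called lower numbered 1 with a pseudocount of 0.1 and with voom, and 0 to 1 with a library left out. At the adjusted p alone, 17 were higher without normalization, and 10 to 12 were higher and 5 to 6 lower with a library left out. The shares over all genes in these settings are not given. Only members that had not passed changed sign. Among these were Slc25a33 (-0.01 as reported) at 0.10 without normalization, 0.066 with median centring, 0.0063 without S1 and S3 and -0.056 to 0.029 with a library left out, Slc25a17 at 0.090 without normalization and 0.053 with median centring, and Slc25a12 at -0.00021 to 0.050 with a library left out. The cause was not tested. For the members under the limit, a pseudocount of 0.1 gave 1 with an exact permutation p under 0.05, and without S1 and S3 the smallest possible p is 0.0667. Members under 1 TPM rest on 4 to 58 reads a group, so only large differences could be seen.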
